A study of Mus musculus with 33 samples.

Results

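The 8 mammary tumors of WAP-cre;Cdh1F/F;Trps1F/F mice in the series fall into 3 subgroups, subgroup-one, subgroup-two and subgroup-three, and the 4 tumors of subgroup-one were compared with the 4 tumors of subgroup-two or subgroup-three. The series holds 33 samples, of which 11 are mammary tumors. In these mice the promoter of the whey acidic protein, a milk protein, drives the Cre recombinase in mammary epithelial cells, and both alleles of Cdh1 and of Trps1 are flanked by loxP sites. The 8 tumors came from 6 mice. Subgroup-one has the tumors of mice 17LCO103 and 18LCO003 and tumors 1 and 2 of mouse 18LCO025, subgroup-two has the tumors of mice 17LCO102 and 18LCO027, and subgroup-three has tumor 3 of mouse 18LCO025 and the tumor of mouse 18LCO052. Mouse 18LCO025 is therefore on both sides. The subgroup was read from the name of the authors' comparison table that each tumor's description lists, and the sources used here do not say how the authors arrived at the subgroups. Should they have been drawn from expression, the differences below give no independent evidence for them. A further 3 tumors of 3 mice with intact Trps1 (WAP-cre;Cdh1F/F;Trps1+/+; mice 18LCO046, 18LCO114 and 18LCO128) are given as a reference and entered no test. All 11 tumors share the Cdh1F/F genotype and the Cre transgene. The labels give no age, and call the material primary mouse mammary tumor cells from a mouse mammary tumor.

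Cdh1 encodes E-cadherin, which joins neighbouring epithelial cells at adherens junctions and is lost in invasive lobular carcinoma of the breast. Trps1 encodes a zinc finger protein of the GATA family that represses transcription and is made by mammary epithelial cells. Carcinoma cells can lose their junctions and polarity and take on features of mesenchymal cells, a change known as epithelial-mesenchymal transition. Transcription factors of the Snail, Zeb and Twist families drive that change and repress epithelial genes, and the Snail and Zeb proteins bind E-box sequences with the core CAGGTG. Epithelial factors such as Grhl2, Ovol2, Elf3 and the splicing regulators Esrp1 and Esrp2 act in the opposite direction.

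The libraries of the 8 tumors held 18304633 to 20889594 reads, and those of the 3 Trps1+/+ tumors 19752263 to 24192323. In a chi-square test of read counts over genes between any 2 libraries of a side, the statistic was 93.0 to 316 times its degrees of freedom, so none was a copy of another. Levels are the authors' values of log2(normalized count + 1) and are not corrected for gene length. Tumors of a mouse were averaged within a side, which left 3 values for subgroup-one and 4 for the others, and a gene was called at a limma adjusted p under 0.05. Mouse 18LCO025 has an average on each side, and the full comparison treated these averages as independent. Differences are subgroup-one minus the others on the same log2 scale, where 1 unit is a 2-fold change and the fold of genes with few reads is understated. In bulk tissue, fewer cells of a type cannot be told apart from less RNA per cell. Values are printed in 1 order throughout: 17LCO103, 18LCO003 and tumors 1 and 2 of 18LCO025 for subgroup-one, then 17LCO102 and 18LCO027 of subgroup-two, then tumor 3 of 18LCO025 and 18LCO052 of subgroup-three.

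Of the targeted genes, Trps1 was not called and Cdh1 was higher in subgroup-one. Trps1 (chr15:50654752-50890463, GRCm38, minus strand) stood at 11.88, 9.90, 10.20 and 10.14 in the 4 subgroup-one tumors and at 10.24, 11.13, 11.91 and 12.63 in the 4 others. The sides overlapped, with 17LCO103 alone among the subgroup-one tumors reaching the upper part of the range (log2 difference -0.83, SE 0.66, limma adjusted p = 0.466). In the Trps1+/+ tumors the gene stood at 11.46, 12.94 and 12.64. Counts cover the whole gene, so they do not check the loss of the floxed exons, which the sources used here do not name. Cdh1 (chr8:106603351-106670246, plus strand) stood at 12.76, 13.24, 13.74 and 13.06 in subgroup-one and at 9.68, 8.38, 10.30 and 6.49 in the others. Every subgroup-one tumor lay above every other tumor, with means of 13.13 ± 0.34 (SD, n = 3 mice) and 8.71 ± 1.68 (SD, n = 4 mice). The call (log2 difference 4.42, SE 0.83, limma adjusted p = 0.0162) was lost without 17LCO103, 18LCO003 or mouse 18LCO025 (limma adjusted p up to 0.0676). The Trps1+/+ tumors, which carry the same floxed Cdh1 alleles, had 10.64, 8.35 and 7.02. Reads of floxed and of other Cdh1 exons were not told apart.

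**Figure D1:**
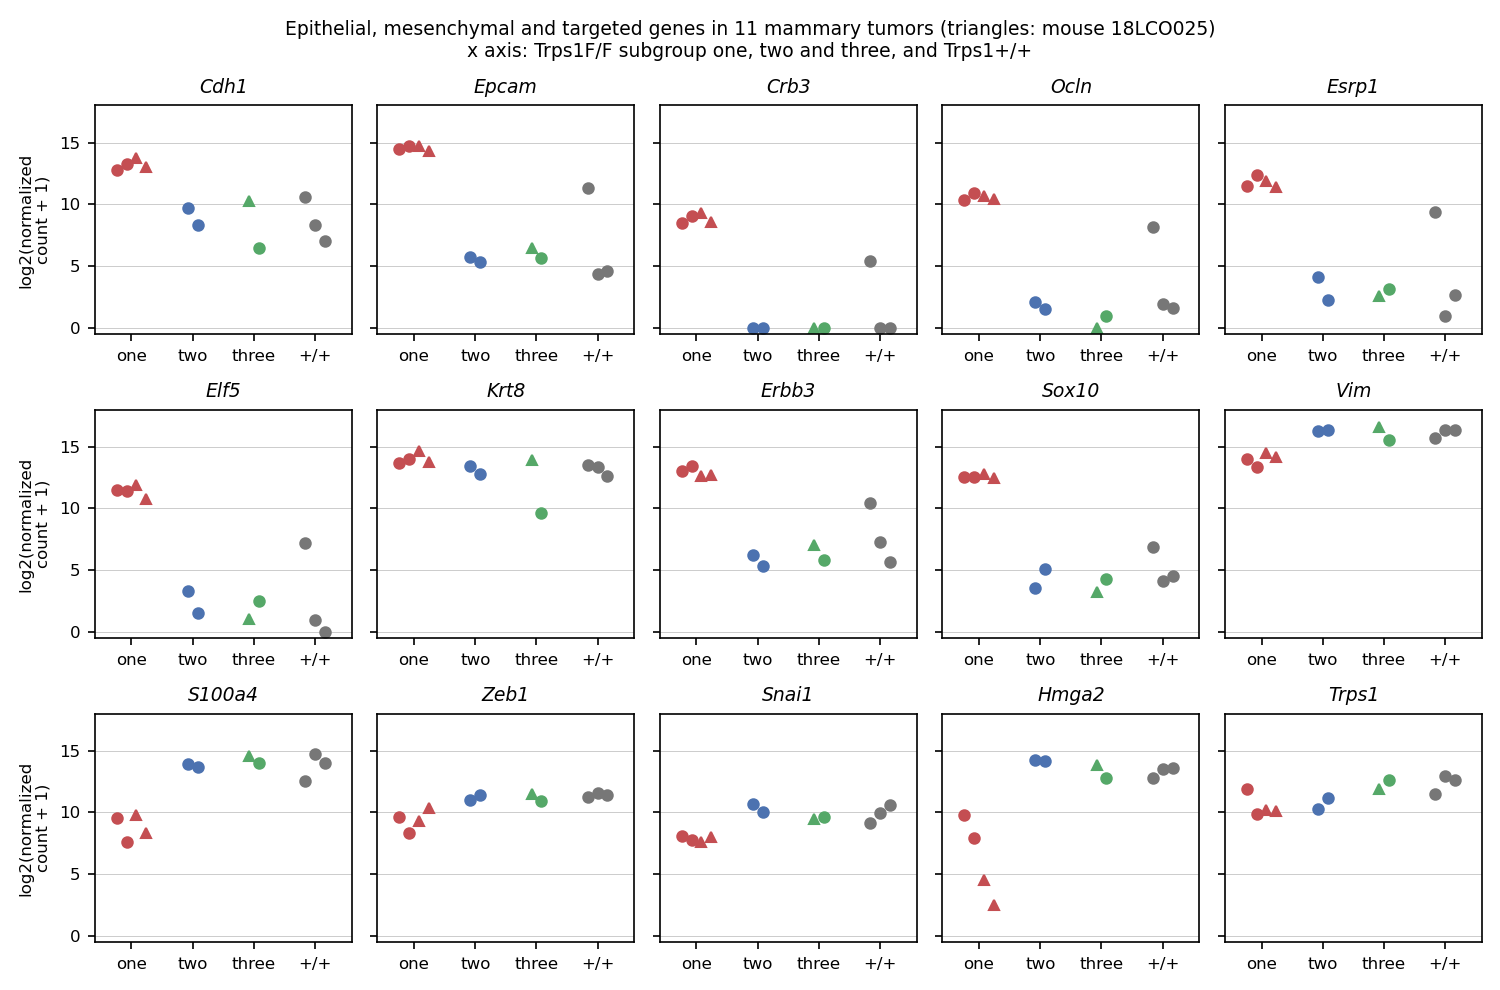
Level of 15 genes in each tumor, as log2(normalized count + 1), by subgroup of the Trps1F/F tumors and in the Trps1+/+ tumors; each point is 1 tumor and triangles are tumors of mouse 18LCO025. The epithelial genes of the upper rows stand higher in all 4 subgroup-one tumors, except that Krt8 overlaps, while Vim, S100a4, Zeb1, Snai1 and Hmga2 stand lower in all 4 and Trps1 overlaps between the sides.

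Subgroup one differed from the other tumors at 1681 of 14908 genes tested (11.3%), with 1067 higher (7.16%) and 614 lower (4.12%). The higher genes differed by far more than the lower ones. Their median log2 difference was 3.41, against -1.42 for the lower genes, and 593 higher genes but 73 lower genes differed by 8-fold or more. At 32-fold or more the numbers were 299 and 10, and 30 of the higher genes had no read in any of the 4 other tumors. The levels of all 8 tumors did not overlap between the sides for 1041 of the 1067 and 603 of the 614, against 13.2% and 10.9% of all genes tested. The genes were called on these same levels, so these counts are a description and no added evidence. The split between the directions depended on the scaling: 63.5% of the calls were higher with the deposited values, 53.1% after quantile normalization (1029 higher, 910 lower) and 54.7% once all tumors were shifted to 1 median (962 and 797). Quantile normalization moved the median over all genes by -0.13 log2 units, from 0.019 to -0.11. With mouse as a random block, 2793 genes were called, of which 1653 were among the 1681. That fit entered all 8 tumors separately, not averaged, with a single correlation within a mouse (0.349) for all genes. The 8 tumors as separate samples without a block gave 2365 calls, and the part of the pairing in the rise was not tested. The count was smaller without each subgroup-one mouse: 865 genes were called without 17LCO103, 754 without 18LCO003 and 623 without mouse 18LCO025. No gene called in the full comparison changed its direction in those 3 fits. Where the sides did not overlap, leaving out tumors cannot turn the direction, so for most called genes this was fixed in advance. In all 9 fits that left out a tumor or mouse 18LCO025, 374 of the higher and 108 of the lower genes were called. Genes with few reads in the other tumors stayed tested there through their level in subgroup-one alone, so the counts are no check on them.

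Among called genes whose sides did not overlap and whose level was above that of the median gene, the 12 that stood furthest above the other tumors had log2 differences of 9.44 to 10.51. In order of size they were Alox12e, an epidermis-type lipoxygenase, Ehf, an epithelial transcription factor of the ETS family, Gabrp, a subunit of the GABA type A receptor, the tight junction gene Cldn4, Ltf, which encodes the milk protein lactoferrin, Fut9, a fucosyltransferase, Atp10b, a lipid flippase, Clca3a2, a regulator of chloride channels, the kinase gene Map3k21, Atp6v1b1, a subunit of the proton pump, and the tight junction genes Ocln and Marveld3. Alox12e stood at 11.58, 10.70, 12.27 and 11.87 in subgroup-one and at 0, 0.99, 0 and 2.78 in the other tumors (log2 difference 10.51, SE 0.76, limma adjusted p = 0.00028). Ehf stood at 13.36, 13.29, 14.08 and 13.54 and at 3.15, 3.15, 2.05 and 4.36 (log2 difference 10.31, SE 0.51, limma adjusted p = 0.000115). The sides were over 7 units apart for both genes, and the calls of all 12 genes held without each tumor, with the genes tested kept as in the full comparison, and without mouse 18LCO025, with a filter on 2 averaged values. Because subgroup-one has 3 averaged values, a gene with few reads in the other tumors passed the filter only through subgroup-one. When the filter was applied again without 17LCO103 or without 18LCO003, Alox12e, Gabrp, Fut9, Atp10b, Map3k21, Atp6v1b1, Ocln and Marveld3 were no longer tested, and Ehf, Cldn4, Ltf and Clca3a2 kept their call. Fut9 had 2 reads in the 4 other tumors together, so that the ratio of normalized counts of 2784 has a 95% counting interval of 770 to 22993.

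The 12 genes that stood furthest below, by the same conditions, had log2 differences of -3.62 to -6.68. They were Hmga2, an architectural chromatin protein of fetal tissue, Unc13c, a synaptic vesicle gene, S100a4, a calcium-binding protein of motile cells, Msln, which encodes mesothelin, the pyrophosphate transporter gene Ank, Crabp2, which carries retinoic acid, the kinase gene Prkg2, the neurotrophin gene Bdnf, the guidance cue Sema3a, the procollagen protease gene Adamts14, the retinol dehydrogenase gene Dhrs9 and Amigo2, an adhesion molecule. Hmga2 (chr10:120361275-120476469) stood at 9.79, 7.95, 4.56 and 2.51 in subgroup-one and at 14.25, 14.14, 13.86 and 12.82 in the others. Tumors 1 and 2 of 18LCO025 were the lowest of the 8, and the subgroup-one values spread over 7 units (log2 difference -6.68, SE 1.31, limma adjusted p = 0.0188; the call was lost without 18LCO003, limma adjusted p = 0.0568). Calls of Unc13c, S100a4, Ank, Bdnf, Adamts14 and Dhrs9 held in all fits that left out a tumor or mouse 18LCO025, and those of the other 6 did not. The call of Msln was lost without 18LCO003, 17LCO102, 18LCO027, tumor 3 of 18LCO025, 18LCO052 or mouse 18LCO025 (limma adjusted p up to 0.208). For Crabp2 it was lost without 17LCO103, 18LCO003, tumor 2 of 18LCO025, 17LCO102, 18LCO027 or mouse 18LCO025 (limma adjusted p up to 0.0816), and for Prkg2 without 17LCO103, 18LCO003, 18LCO027 or mouse 18LCO025 (limma adjusted p up to 0.109). Sema3a was not called without 17LCO103, 18LCO003, 17LCO102, 18LCO027, tumor 3 of 18LCO025 or mouse 18LCO025 (limma adjusted p up to 0.151), nor Amigo2 without 17LCO103, 18LCO003, tumor 2 of 18LCO025, 18LCO027 or 18LCO052 (limma adjusted p up to 0.135).

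**Figure D2:**
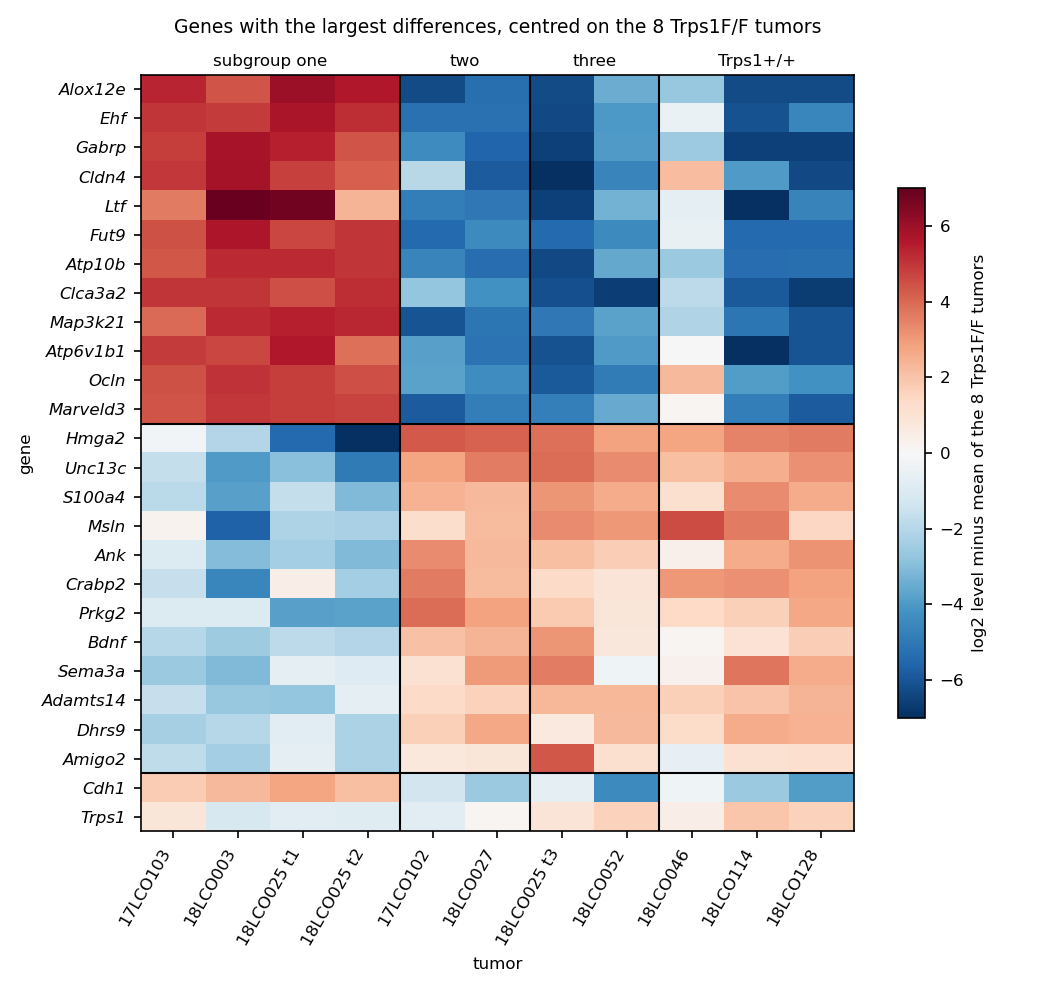
Level of the 12 genes with the largest difference in each direction, and of Cdh1 and Trps1, in each of the 11 tumors, as log2 level minus the mean of the 8 Trps1F/F tumors; rows are genes, columns are tumors and colours stop at 7 units either way. The upper 12 rows are above the mean in the 4 subgroup-one columns and below it in the other Trps1F/F columns, and the next 12 rows run the other way except for a pale cell of Crabp2 in tumor 1 of 18LCO025, of Msln in 17LCO103 and of Sema3a in 18LCO052.

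Most genes of epithelial junctions were higher in subgroup-one. Of 38 genes of epithelial junctions, all of which passed the filter on low values, 30 were called higher and none lower, against 7.16% and 4.12% of all genes tested. The median log2 difference over the 38 was 6.62, beside 0.019 over all genes tested. The counts called higher were 28, 27 and 27 without 17LCO103, without 18LCO003 and without mouse 18LCO025. In these fits, here and for the lists below, genes with few reads in the other tumors stayed tested through subgroup-one alone. The counts are therefore no check on such genes. The 8 members that did not pass were F11r, Jup, Ctnnd1, Pkp2, Cldn1, Ctnna1, Tjp1 and Ctnnb1, of which F11r, Jup and Ctnnd1 were called with the block by mouse (limma adjusted p = 0.0495, 0.0303 and 0.0233) and Jup, Ctnnd1 and Tjp1 after quantile normalization. Among these are the catenins that hold E-cadherin to actin: Ctnnb1 stood at 13.97 to 14.36 in subgroup-one and 13.77 to 14.69 in the others, a difference of 0.01 (SE 0.26), and Ctnna1 differed by 0.65 (SE 0.27).

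Epcam, an epithelial adhesion molecule, had the smallest p of the list. It stood at 14.45, 14.76, 14.72 and 14.31 in subgroup-one and at 5.75, 5.33, 6.44 and 5.66 in the other tumors (log2 difference 8.78, SE 0.27, limma adjusted p = 3.91e-05). The gap between the sides was over 7 units, while tumors of a side lay close together. Rab25, a vesicle traffic gene of polarized cells, stood at 10.41, 10.69, 10.98 and 10.27 and at 2.13, 1.98, 2.05 and 2.29 (log2 difference 8.46, SE 0.31, limma adjusted p = 5.86e-05). Crb3, a polarity gene of the Crumbs complex, stood at 8.54, 9.09, 9.27 and 8.57 in subgroup-one and had no read in the other 4 tumors, so it was at least 620-fold higher when 3 counts over the group are taken as the floor. Its exons overlap those of Dennd1c, and whether the kit kept the strand is not stated. Ocln, which encodes the tight junction protein occludin, stood at 10.34, 10.96, 10.72 and 10.42 and at 2.13, 1.57, 0 and 0.98 (log2 difference 9.45, SE 0.56, limma adjusted p = 0.000137). Of the factors that maintain the epithelial state, Esrp1 stood at 11.49, 12.36, 11.88 and 11.45 against 4.16, 2.30, 2.64 and 3.14 (log2 difference 8.78, SE 0.497, limma adjusted p = 0.000137), and Ovol2 at 6.998, 7.12, 7.44 and 7.39 with no read in the others. Grhl2 stood at 11.26, 11.43, 11.53 and 11.20 against 3.15, 4.15, 8.02 and 2.97; tumor 3 of 18LCO025 was the highest of the other side, and the call (limma adjusted p = 0.0111) was lost without 18LCO003 (limma adjusted p = 0.0511). The levels of Epcam, Rab25, Crb3, Ocln, Esrp1 and Ovol2 did not overlap, and their calls held in each fit that left out a tumor or mouse 18LCO025, although Rab25, Crb3, Ocln and Ovol2 had too few reads in the other tumors to be tested once the filter was applied again.

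The promoters of 4 genes of the list are shown because each holds at least 2 copies of the E-box that Snail and Zeb proteins bind. They run from 250 bases before to 50 after the start in RefSeq (GRCm38.p6), 5′ to 3′ on the gene's strand, with CAGGTG and its reverse complement CACCTG in capitals. Crb3 is at chr17:57061951-57062250 (plus strand), Epcam at chr17:87635729-87636028 (plus), Rab25 at chr3:88548230-88548529 (minus) and Cldn4 at chr5:134946885-134947184 (minus).
Crb3: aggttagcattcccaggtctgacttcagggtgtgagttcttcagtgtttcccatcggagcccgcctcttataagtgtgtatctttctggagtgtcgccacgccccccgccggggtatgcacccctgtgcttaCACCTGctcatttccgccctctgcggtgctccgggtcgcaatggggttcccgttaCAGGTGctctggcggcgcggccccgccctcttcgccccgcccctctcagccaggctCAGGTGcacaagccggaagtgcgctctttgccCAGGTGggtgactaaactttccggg
Epcam: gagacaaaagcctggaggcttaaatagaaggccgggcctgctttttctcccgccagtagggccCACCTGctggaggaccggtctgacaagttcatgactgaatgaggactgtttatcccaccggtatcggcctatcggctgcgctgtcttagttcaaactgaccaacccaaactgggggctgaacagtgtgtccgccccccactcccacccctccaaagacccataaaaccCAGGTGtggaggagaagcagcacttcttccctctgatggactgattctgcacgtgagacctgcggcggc
Rab25: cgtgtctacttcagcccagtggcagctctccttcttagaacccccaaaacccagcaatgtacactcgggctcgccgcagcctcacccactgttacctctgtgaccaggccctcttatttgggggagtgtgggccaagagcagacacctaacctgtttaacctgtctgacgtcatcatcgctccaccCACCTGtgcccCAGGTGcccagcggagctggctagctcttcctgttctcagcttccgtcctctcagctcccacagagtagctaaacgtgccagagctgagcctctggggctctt
Cldn4: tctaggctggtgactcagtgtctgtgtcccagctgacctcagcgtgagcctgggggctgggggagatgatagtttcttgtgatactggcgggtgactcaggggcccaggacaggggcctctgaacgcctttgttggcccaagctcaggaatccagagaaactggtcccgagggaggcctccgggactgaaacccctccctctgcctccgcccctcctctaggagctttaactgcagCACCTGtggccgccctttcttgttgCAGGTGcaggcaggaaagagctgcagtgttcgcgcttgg

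The Crb3 window holds 4 of these E-boxes and the other windows hold 2 each. Both letter orders were searched on the printed strand, which covers both strands, and no 2 matches overlapped. With 1 promoter taken for each gene, 20.03% of all 27025 promoters held at least 1 E-box, as did 17.7% of those of the 11330 tested genes that were matched. The share was 33.0% among the called higher genes (260 of 788 matched) and 10.1% among the called lower genes (49 of 487 matched). Of the 23 matched junction genes, 13 held at least 1 (56.5%) and 7 held at least 2 (30.4%), against 2.41% of tested genes with at least 2. These shares describe letters in a window of fixed length and say nothing of binding.

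Most markers of luminal mammary cells were higher, but the luminal keratins Krt8 and Krt18 were not called. Of 28 luminal genes 26 passed the filter, of which 19 were higher and none lower, with a median log2 difference of 6.54. Among all genes tested 7.16% were higher and 4.12% lower. The counts called higher were 15, 14 and 15 without each of the 3 subgroup-one mice in the order 17LCO103, 18LCO003, 18LCO025. Elf5, the transcription factor of alveolar luminal cells, stood at 11.52, 11.41, 11.90 and 10.79 in subgroup-one and at 3.32, 1.57, 1.04 and 2.55 in the others (log2 difference 9.31, SE 0.57, limma adjusted p = 0.000153). Elf3, another ETS factor of epithelia, stood at 10.81, 11.60, 11.38 and 10.04 and 2.73, 0.99, 1.04 and 2.55 (log2 difference 9.21, SE 0.58, limma adjusted p = 0.000161). The other tumors had few reads of either gene. Neither was tested once the filter was applied again without 17LCO103 or 18LCO003. Foxa1, a partner of the oestrogen receptor, was also higher, at 8.54, 8.03, 7.24 and 8.91 against 4.06, 1.98, 0 and 3.29 (log2 difference 5.88, SE 0.93, limma adjusted p = 0.00804). Its call was lost when the filter was applied again without 17LCO103 or 18LCO003 (limma adjusted p up to 0.0512). Gata3, the GATA factor of luminal cells, differed by 0.17 (SE 0.41), and Esr1, the oestrogen receptor, by 0.72 (SE 0.49); neither passed.

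Among the keratins of simple epithelia, Krt7 was higher (13.35, 13.64, 11.81 and 11.69 against 4.92, 3.88, 3.77 and 5.61; log2 difference 8.37, SE 0.61, limma adjusted p = 0.0003). Krt8 stood at 13.68, 13.998, 14.66 and 13.76 and 13.43, 12.81, 13.93 and 9.67, and the sides overlapped, with 18LCO052 the lowest (difference 1.51, SE 0.94, limma adjusted p = 0.347). Krt18, its partner, stood at 14.72, 15.06, 14.86 and 14.04 and 13.78, 11.91, 12.81 and 9.66 and did not pass (difference 2.71, SE 0.87, limma adjusted p = 0.0923), but did with the block by mouse (0.0481) and after quantile normalization (0.0498). Krt19 stood at 11.75, 12.04, 12.87 and 11.97 and 8.98, 5.33, 1.63 and 2.97, with 17LCO102 highest of the other side, and its call was lost without 17LCO103, 18LCO003, 18LCO027, 18LCO052 or mouse 18LCO025 (limma adjusted p up to 0.131).

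A part of the milk and secretory genes was higher in subgroup-one, unevenly between its tumors. Of 22 genes 15 passed the filter, 8 were higher and none lower, with a median log2 difference of 5.91, and the counts were 8, 9 and 8 without 17LCO103, 18LCO003 and mouse 18LCO025. The shares of all genes tested were 7.16% higher and 4.12% lower. Ltf stood at 14.21, 17.52, 17.36 and 12.94 in subgroup-one and at 5.72, 5.59, 4.07 and 7.27 in the others (log2 difference 9.97, SE 0.93, limma adjusted p = 0.000865). Within subgroup-one, 18LCO003 and tumor 1 of 18LCO025 stood over 3 units above the other two tumors, all of them above the other side. Lcn2, which encodes the iron-trapping protein lipocalin 2, stood at 15.68, 15.19, 13.74 and 13.02 against 6.85, 5.02, 6.41 and 6.15 (log2 difference 8.64, SE 0.62, limma adjusted p = 0.00028). Prlr, the prolactin receptor, stood at 10.79, 8.72, 10.01 and 9.51 against 5.16, 3.56, 3.23 and 3.43 (log2 difference 5.91, SE 0.65, limma adjusted p = 0.00178). The casein gene Csn3 was higher in all 4 tumors (14.23, 12.39, 12.21 and 11.01 against 8.55, 6.38, 3.77 and 4.96; log2 difference 6.83, SE 1.14, limma adjusted p = 0.01). Its call was lost when the filter was applied again without 17LCO103 or 18LCO003 (limma adjusted p up to 0.0559). Csn2, the beta casein gene, was not called, and 18LCO003 had 1.54 beside 13.14, 9.37 and 11.499 in the other subgroup-one tumors and the other side had 2.13, 3.68, 1.63 and 0; with the block by mouse it was called (limma adjusted p = 0.0464). Summed levels of the 22 genes overlapped between the sides, at 16.1 to 18.3 in subgroup-one and 15.6 to 19.9 in the others. Both subgroup-two tumors (19.9 and 18.8) lay above all of subgroup-one, while subgroup-three lay at 15.6 to 16.2.

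A part of the basal genes was higher. Of 22 basal and myoepithelial genes 21 passed the filter. Of these, 5 were higher and 1, Vim, was lower, against 7.16% and 4.12% of all genes tested. The median log2 difference was 1.59. The neurotrophic factor gene Nrtn, at 5.59, 5.33, 6.88 and 6.04 in subgroup-one, had no read in the other 4 tumors and was at least 86.9-fold higher. Oxtr, the oxytocin receptor of myoepithelial cells, stood at 9.33, 8.20, 7.09 and 9.91 against 3.15, 1.98, 1.04 and 3.14 (log2 difference 6.35, SE 0.64, limma adjusted p = 0.00116). Nrtn and Oxtr were no longer tested when the filter was applied again without 17LCO103 or 18LCO003. The basal keratin Krt14 stood at 12.35, 13.13, 14.62 and 13.19 against 8.55, 4.499, 9.30 and 7.69 (log2 difference 5.62, SE 1.08, limma adjusted p = 0.0169; lost without 18LCO003 or mouse 18LCO025, limma adjusted p up to 0.0766). Its partner Krt5 ran from 5.11 in 18LCO003 to 13.82 in tumor 1 of 18LCO025 and was not called, nor were Trp63, the basal cell factor, and the contractile gene Acta2.

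Squamous genes stood out in 1 tumor. Of 30 genes of squamous cornification 16 passed the filter and 7 were higher and none lower, with a median log2 difference of 2.41 and with counts of 6, 5 and 4 without 17LCO103, 18LCO003 and mouse 18LCO025. Of all genes tested, 7.16% were higher and 4.12% lower. Tumor 1 of 18LCO025 had 16.07 for Krt10, a keratin of differentiating epidermis, while the other 7 tumors had 4.72 to 5.88, and the gene was not called (limma adjusted p = 0.322). Krt6a, a keratin of activated epidermis, stood at 7.12, 5.15, 11.96 and 1.53 against 1.70, 0, 2.64 and 0.98, and its call was lost without tumor 1 of 18LCO025 (limma adjusted p = 0.157) and with the block by mouse (limma adjusted p = 0.149). Dsg3, a desmosomal cadherin of stratified epithelia, stood at 9.08, 6.90, 9.46 and 2.25 against 1.09, 0, 2.38 and 0, and its call was lost without tumor 1 of 18LCO025 (limma adjusted p = 0.0736). For both genes tumor 2 of 18LCO025 lay inside the range of the other side. With the filter applied again without 17LCO103 or 18LCO003, neither gene was tested. The desmosomal cadherin Dsc2 was higher in all 4 (10.14, 10.85, 9.84 and 9.21 against 6.81, 7.31, 7.40 and 7.78; log2 difference 2.85, SE 0.37, limma adjusted p = 0.00326). The summed level of the list was 17.5 in tumor 1 of 18LCO025 and 13.5 to 14.5 in the other subgroup-one tumors, which overlapped with the 11.3 to 14.5 of the others.

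Some genes of the mesenchymal program were lower in subgroup-one. All 28 genes of the list passed the filter, of which 10 were lower and 1 higher, with a median log2 difference of -1.19. The shares among all genes tested were 4.12% lower and 7.16% higher. The counts called lower were 9, 8 and 5 without 17LCO103, 18LCO003 and mouse 18LCO025. The largest difference was that of S100a4, at 9.56, 7.64, 9.78 and 8.37 in subgroup-one and 13.89, 13.69, 14.55 and 14.01 in the others (log2 difference -5.28, SE 0.45, limma adjusted p = 0.00057). Axl, a receptor tyrosine kinase, stood at 12.49, 12.41, 12.496 and 12.10 against 14.79, 14.48, 14.62 and 13.90 (log2 difference -2.05, SE 0.24, limma adjusted p = 0.00217). Itga5, the alpha subunit of the fibronectin receptor, stood at 10.86, 10.501, 9.82 and 10.81 against 13.54, 13.34, 12.39 and 12.73 (log2 difference -2.44, SE 0.30, limma adjusted p = 0.00284). The 3 calls held in every fit that left out a tumor or mouse 18LCO025. The exons of S100a4 overlap those of the predicted gene Gm42674. Vim, which encodes vimentin, stood at 14.01, 13.33, 14.52 and 14.15 against 16.25, 16.35, 16.55 and 15.498 (log2 difference -2.27, SE 0.36, limma adjusted p = 0.00836; lost without mouse 18LCO025, limma adjusted p = 0.0558).

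Of the transcription factors that drive the transition, Snai1 stood at 8.14, 7.76, 7.59 and 7.98 against 10.71, 10.03, 9.51 and 9.64 (log2 difference -2.07, SE 0.31, limma adjusted p = 0.00633), and its call held in all of those fits. Zeb1 stood at 9.63, 8.34, 9.30 and 10.34 against 11.02, 11.39, 11.48 and 10.94, a difference of -1.95 (SE 0.36, limma adjusted p = 0.0154), and Zeb2 differed by -1.78 (SE 0.27, limma adjusted p = 0.00616). Both calls were lost without mouse 18LCO025, with limma adjusted p of 0.064 and 0.0684. Twist1 differed by -1.47 (limma adjusted p = 0.0185; lost without 18LCO003 or mouse 18LCO025, limma adjusted p up to 0.117). None of the 4 genes was silent in subgroup-one, where the lowest value was 7.59. Snai2, Twist2 and the N-cadherin gene Cdh2 were not called, although Snai2 was with the block by mouse (limma adjusted p = 0.0431) and after quantile normalization (0.0298). Cdh2 stood at 10.61, 11.30 and 10.45 in 3 of the other tumors and at 3.97 in 18LCO052, below all 4 subgroup-one tumors. Fn1, which encodes fibronectin, stood at 15.58, 15.29, 15.59 and 15.91 against 19.63, 18.23, 17.25 and 17.09 and missed the threshold (difference -2.51, SE 0.66, limma adjusted p = 0.051). It was called with the block by mouse (limma adjusted p = 0.0215), after quantile normalization (0.00436) and when all tumors were shifted to 1 median. Foxc1, a forkhead factor of mesenchyme, was the member that was higher, at 10.18, 10.95, 12.30 and 9.71 against 8.96, 8.73, 8.64 and 9.12, and its call was lost without mouse 18LCO025 (limma adjusted p = 0.0561).

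Few collagen genes and fibroblast markers were called, beside 7.16% higher and 4.12% lower among all genes tested. Of 42 genes of collagens and matrix, all kept, 1 was higher and 1 lower, with a median of 0.26: Thbs1, which encodes thrombospondin 1, differed by 2.23 (SE 0.46; lost without 18LCO003, 18LCO027, tumor 3 of 18LCO025 or mouse 18LCO025, limma adjusted p up to 0.148), and the laminin gene Lamb1 by -1.93 (SE 0.44; lost without 17LCO103, 18LCO003, 17LCO102, 18LCO027, tumor 3 of 18LCO025 or mouse 18LCO025, limma adjusted p up to 0.2). Col1a1, the main fibrillar collagen gene, stood at 16.503, 14.93, 17.04 and 17.67 against 12.91, 15.01, 15.78 and 14.22, and the sides overlapped. Of 22 fibroblast markers 21 were kept and 1 was lower, Cd34, at 11.03, 9.01, 10.68 and 10.81 against 13.09, 12.86, 12.74 and 13.10 (log2 difference -2.69, SE 0.46, limma adjusted p = 0.0108; lost without mouse 18LCO025, limma adjusted p = 0.0665). The median difference of the fibroblast list, 0.021, turned negative when all tumors were shifted to 1 median. Summed fibroblast levels were 16.6 to 19.4 in subgroup-one and 17.2 to 18.7 in the others.

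The signalling lists had calls in small numbers. Among all genes tested 7.16% were higher and 4.12% lower. The Wnt and Notch lists exceeded the share higher, and the YAP and TAZ list the share lower. Of 24 EGF ligands, ErbB receptors and their regulators 21 were kept, with 2 higher and 1 lower and a median log2 difference of -0.17. Erbb3, the receptor of neuregulins, stood at 13.01, 13.41, 12.60 and 12.73 against 6.27, 5.33, 7.07 and 5.87 (log2 difference 6.89, SE 0.41, limma adjusted p = 0.000137), with the sides more than 5 units apart. Its partner Erbb2 stood at 11.57, 11.94, 11.99 and 11.501 against 10.28, 9.95, 9.60 and 9.07 (log2 difference 2.03, SE 0.29, limma adjusted p = 0.00502; lost without mouse 18LCO025, limma adjusted p = 0.0683). The EGF family ligand gene Epgn was lower (4.42, 5.11, 6.06 and 5.82 against 7.75, 7.54, 8.05 and 8.92; log2 difference -2.91, SE 0.49, limma adjusted p = 0.0103). Epgn lost its call without 18LCO003 when the filter was applied again (limma adjusted p = 0.061). Areg, which encodes amphiregulin, lay lower in all 4 tumors without passing (difference -2.99, SE 1.14, limma adjusted p = 0.139, with the block by mouse 0.0422).

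Of 41 Wnt pathway genes 37 were kept, 6 higher and 1 lower, with a median of 0.89. The receptor gene Fzd7 stood at 12.56, 13.26, 12.56 and 11.98 against 9.75, 9.84, 9.60 and 9.75 (log2 difference 2.96, SE 0.24, limma adjusted p = 0.000457), with the other tumors close together. Nkd2, an antagonist of Dishevelled, stood at 13.36, 14.01, 12.71 and 12.19 against 8.42, 7.09, 9.58 and 6.68 (log2 difference 5.33, SE 0.72, limma adjusted p = 0.00408), and Lgr4, a receptor of R-spondins, at 11.29, 12.25, 11.77 and 11.40 against 7.48, 8.90, 9.26 and 8.38 (log2 difference 3.20, SE 0.44, limma adjusted p = 0.00443). The ligand gene Wnt5b was higher by 5.41 (SE 0.71; lost without mouse 18LCO025, limma adjusted p = 0.0583). The antagonist gene Dkk2 was the lower member (log2 difference -3.76, SE 0.78; lost without 17LCO103, 18LCO003, tumor 2 of 18LCO025 or mouse 18LCO025, limma adjusted p up to 0.102), and its sides overlapped. The list's counts called higher were 4, 5 and 4 without 17LCO103, 18LCO003 and mouse 18LCO025, and 11 with the block by mouse.

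Of 22 Notch pathway genes 20 were kept, 3 higher and 2 lower, with a median of 0.57. The ligand gene Dll1 stood at 12.13, 12.12, 11.01 and 11.22 against 6.07, 7.58, 7.96 and 6.52 (log2 difference 4.76, SE 0.51, limma adjusted p = 0.00158), and the receptor gene Notch3 was higher by 2.37 (SE 0.36, limma adjusted p = 0.0068). Notch3 lost its call without 18LCO003 when the filter was applied again (limma adjusted p = 0.0508). The receptor gene Notch2 (-0.83; lost without 17LCO103, 18LCO003 or mouse 18LCO025, limma adjusted p up to 0.0976) and Rbpj, the DNA-binding partner of Notch (-1.58; lost without 17LCO103 or mouse 18LCO025, limma adjusted p up to 0.0937), were lower. Of 26 TGF-beta genes 2 were higher and 1 lower. Tgfbi, a matrix protein induced by TGF-beta, stood at 11.59, 11.15, 11.67 and 11.38 against 13.16, 12.76, 13.34 and 13.51 (log2 difference -1.77, SE 0.22, limma adjusted p = 0.00282), and Inhbb, an activin subunit, at 12.14, 12.25, 12.35 and 11.38 against 10.44, 10.25, 10.496 and 9.29 (log2 difference 1.96, SE 0.31, limma adjusted p = 0.00761). Inhbb lost its call without 18LCO003 when the filter was applied again (limma adjusted p = 0.055). The decoy receptor gene Bambi was higher by 2.65 (lost without 17LCO103 or mouse 18LCO025, limma adjusted p up to 0.124). The median of the TGF-beta list, 0.053, changed its sign with the scaling.

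Of 24 AP-1 and immediate early genes 22 were kept, and Fosl1, an AP-1 subunit, stood at 6.41, 7.36, 6.47 and 4.77 against 9.49, 10.12, 10.25 and 10.39 (log2 difference -3.60, SE 0.43, limma adjusted p = 0.00232). Of the list 1 gene was lower and 1 higher, against 2 and 5 with the block by mouse; the higher one was Nr4a1, an orphan nuclear receptor (1.40; lost without 17LCO103, 18LCO003, 17LCO102, 18LCO027, tumor 3 of 18LCO025 or mouse 18LCO025, limma adjusted p up to 0.237). Of 28 YAP and TAZ genes 26 were kept, 2 higher and 4 lower, with a median of 0.16. Its largest difference was that of F3, which encodes tissue factor (11.80, 12.38, 11.44 and 11.06 against 7.0001, 7.17, 7.37 and 8.54; log2 difference 4.29, SE 0.43, limma adjusted p = 0.00113), while Axl, above, and Asap1 (log2 difference -2.11, SE 0.26, limma adjusted p = 0.00292) were lower. In the Hedgehog list (13 of 15 kept, 1 higher, 2 lower, median -0.18), the transcription factor gene Gli3 stood at 8.78, 8.46, 8.09 and 8.29 against 10.74, 10.74, 10.29 and 10.51 (log2 difference -2.09, SE 0.20, limma adjusted p = 0.00102). Ptch1, the Hedgehog receptor, was higher by 1.09 (lost without 18LCO003 or mouse 18LCO025, limma adjusted p up to 0.109).

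GATA factors and the corepressors with which Trps1 and other GATA proteins act had calls in small numbers. Of 30 genes 27 were kept, 1 higher and 3 lower, with a median of -0.24. The shares over all genes tested were 7.16% higher and 4.12% lower, the latter below that of the list. Zfpm2, a zinc finger cofactor of GATA proteins, stood at 5.32, 3.53, 4.22 and 6.04 against 8.42, 8.37, 9.37 and 9.33 (log2 difference -4.21, SE 0.53, limma adjusted p = 0.00297). Its call held in all fits that left out a tumor or mouse 18LCO025. The deacetylase genes moved by less than 2-fold: Hdac3 was higher by 0.92 (lost without 18LCO003 or mouse 18LCO025, limma adjusted p up to 0.112), and Hdac2 lower, with a difference of -0.93 (lost without 17LCO103, 18LCO003, 18LCO052 or mouse 18LCO025, limma adjusted p up to 0.123). Mbd3, a subunit of the NuRD complex, differed by -0.61 (lost without 17LCO103, 18LCO003, tumor 2 of 18LCO025, 18LCO027, tumor 3 of 18LCO025, 18LCO052 or mouse 18LCO025, limma adjusted p up to 0.137). Of 17 genes of the IGF system 15 were kept and 2 were higher; Igfbp5, a binding protein, stood at 16.36, 14.70, 15.75 and 14.996 against 9.32, 8.84, 12.40 and 12.13 (log2 difference 4.81, SE 0.96, limma adjusted p = 0.0201; lost without 17LCO103, 18LCO003 or mouse 18LCO025, limma adjusted p up to 0.08).

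A small set of genes known from Schwann cells and cartilage was high in all 4 subgroup-one tumors. Sox10, a transcription factor of Schwann cells that is also made in mammary epithelium, stood at 12.53, 12.58, 12.75 and 12.48 against 3.61, 5.14, 3.23 and 4.29 (log2 difference 8.51, SE 0.45, limma adjusted p = 0.000123). Of 14 Schwann and nerve genes 13 were kept and 4 were higher, with a median of 1.05, among them Erbb3 and Mbp, which encodes myelin basic protein (10.55, 11.18, 13.20 and 12.57 against 8.62, 8.81, 8.17 and 8.49; log2 difference 3.01, SE 0.51, limma adjusted p = 0.0108). Mbp lost its call without 18LCO003 when the filter was applied again (limma adjusted p = 0.0503). Of 22 genes of cartilage and bone 16 were kept and 4 were higher, with a median of 0.91. For both lists, 7.16% of all genes tested were higher. The cartilage and bone list as a whole did not stand higher in subgroup-one. Its summed level was 14.9 to 17.1 there and 15.4 to 19.9 in the others, with both subgroup-two tumors above all of subgroup-one. The collagen gene Col9a1 stood at 10.82, 10.99, 6.89 and 10.66 against 3.47, 0.99, 0 and 0.98 (log2 difference 8.83, SE 0.93, limma adjusted p = 0.00143), Alpl, which encodes the tissue alkaline phosphatase, at 10.71, 10.56, 11.85 and 10.84 against 2.13, 2.79, 5.02 and 5.58 (log2 difference 6.996, SE 0.86, limma adjusted p = 0.00283), and Col11a1 at 11.44, 10.43, 12.75 and 12.08 against 4.48, 5.997, 7.15 and 6.11 (log2 difference 5.49, SE 0.68, limma adjusted p = 0.00291). The cartilage collagen gene Col2a1 and the proteoglycan gene Acan were not called, and their sides overlapped. Cidea, a lipid droplet gene of brown fat and lactating mammary epithelium, had 2 reads in the other 4 tumors, both in 18LCO052, and stood at 9.36, 10.34, 9.74 and 9.61 in subgroup-one, a ratio of 1749 with a 95% counting interval of 484 to 14445. Cidea was not tested once the filter was applied again without 17LCO103 or 18LCO003. The adipocyte hormone gene Adipoq was not called, with 18LCO003 at 0.97.

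Cell cycle genes lay lower, with calls in small numbers. Of 32 S phase genes, all kept, 4 were lower and none higher, with a median log2 difference of -0.79. Of 34 genes of G2 and mitosis 33 were kept, 4 were lower and none higher, with a median of -1.23. The median over all genes tested was 0.019, with 4.12% of them lower and 7.16% higher, so both lists exceeded the share lower. Foxm1, the transcription factor of mitotic genes, stood at 9.19, 8.97, 7.19 and 8.82 against 10.06, 11.13, 10.72 and 11.07 (log2 difference -2.02, SE 0.37, limma adjusted p = 0.0137; lost without mouse 18LCO025, limma adjusted p = 0.0881). The helicase subunit gene Mcm2 stood at 9.92, 9.500, 9.24 and 9.61 against 10.63, 11.11, 10.500 and 11.15 (log2 difference -1.23, SE 0.23, limma adjusted p = 0.0144; lost without 18LCO003 or mouse 18LCO025, limma adjusted p up to 0.0715). Tumor 1 of 18LCO025 was the lowest of the 8 for both. The calls depended on single mice: without 17LCO103, 18LCO003 and mouse 18LCO025 the S phase counts were 3, 0 and 0 and the mitotic counts 1, 2 and 0, while the block by mouse gave 10 and 11.

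Metabolic genes changed in small numbers. Among all genes tested 7.16% were higher and 4.12% lower, and the fatty acid list exceeded the share higher. Of 21 genes of fatty acid synthesis 5 were higher and 1 was lower, with a median of 0.66, but the counts called higher were 0, 1 and 0 without 17LCO103, 18LCO003 and mouse 18LCO025. Srebf1, the transcription factor of lipid synthesis, stood at 12.33, 12.22, 12.63 and 12.05 against 11.23, 11.07, 10.18 and 10.21 (log2 difference 1.62, SE 0.29, limma adjusted p = 0.0134; lost without 17LCO103, 18LCO003 or mouse 18LCO025, limma adjusted p up to 0.0973). Of 30 hypoxia and glycolysis genes 29 were kept and 3 were higher, with a median of 0.40. The aldolase gene Aldoc stood at 12.83, 12.79, 13.42 and 12.55 against 8.47, 7.34, 4.77 and 7.75 (log2 difference 5.79, SE 0.79, limma adjusted p = 0.00433), and its call held in all fits that left out a tumor or mouse 18LCO025. None of 34 ribosomal protein genes and none of 31 kept interferon genes was called, with medians of 0.10 and 0.41. The same held for the kept genes of inflammatory cytokines (27), the unfolded protein response (25), heat shock (15), FGF signalling (11) and neural cells (8). The lists of BMP signalling, p53 targets, MHC class I and imprinted genes had 1 higher gene each, oxidative phosphorylation had 1 lower gene and actomyosin 2 (7 with the block by mouse), of 13 to 33 kept members.

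**Figure D3:**
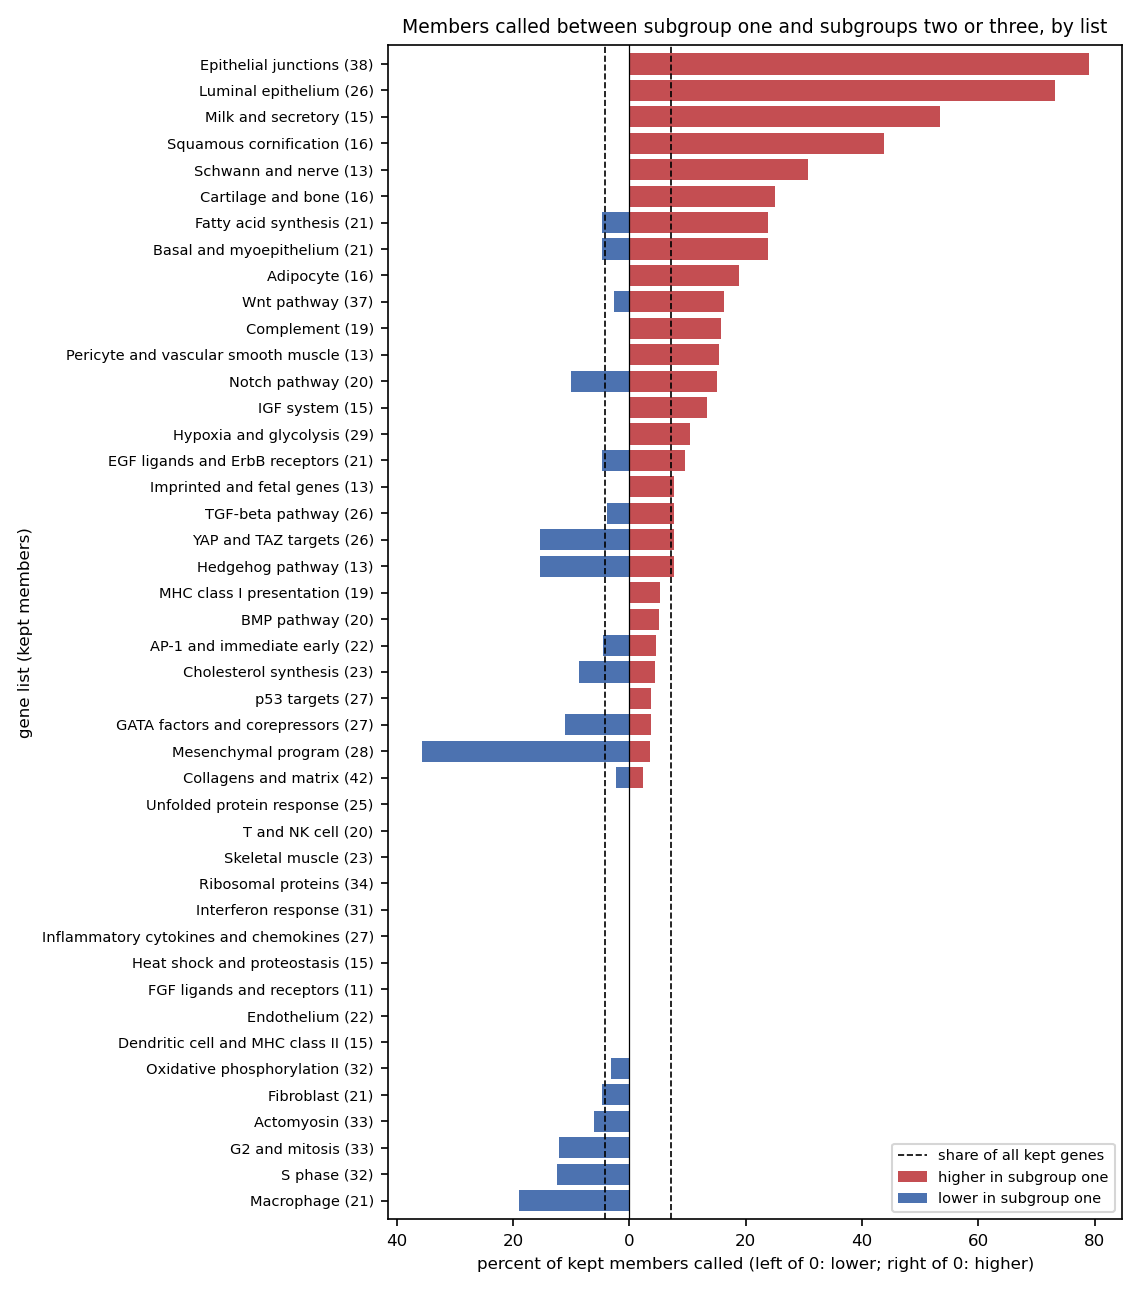
Percent of the kept members of each gene list that were called higher (right) or lower (left) in subgroup-one, for lists with at least 10 kept members, whose number stands in brackets; dashed lines are the shares of all genes tested, 7.16% higher and 4.12% lower. The junction, luminal, milk and squamous lists reach furthest to the right and the mesenchymal and macrophage lists furthest to the left.

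Markers of some stromal and immune cells were called, to be read against 7.16% higher and 4.12% lower among all genes tested. Of 20 adipocyte genes 16 were kept, 3 were higher and none lower, with a median log2 difference of 1.21. Of 22 macrophage markers 21 were kept, 4 were lower and none was higher, with a median log2 difference of -1.22, and 10 were lower with the block by mouse. Mrc1, a scavenger receptor of tissue macrophages, stood at 10.47, 8.48, 9.87 and 10.58 against 13.96, 12.88, 12.45 and 13.19 (log2 difference -3.40, SE 0.54, limma adjusted p = 0.00831), and its call held throughout. The others were Siglec1 (-3.33; lost without 17LCO103, 18LCO003, 17LCO102 or mouse 18LCO025, limma adjusted p up to 0.113), Cx3cr1 (-1.27; lost without 17LCO103, 18LCO003, tumor 2 of 18LCO025, 17LCO102, tumor 3 of 18LCO025, 18LCO052 or mouse 18LCO025, limma adjusted p up to 0.156) and Msr1 (-2.35; lost without 17LCO103, 18LCO003, 18LCO052 or mouse 18LCO025, limma adjusted p up to 0.141). The summed level of the list was 16.1 to 16.6 in subgroup-one and 16.5 to 18.4 in the others, 17LCO102 being the highest of the 8, and their part in the differences above was not tested. No macrophage marker was at 0 reads in all 8 tumors. None of 22 endothelial (median -0.26), 20 kept T and NK cell, 15 dendritic cell and 23 skeletal muscle genes was called, and none of the kept B cell, neutrophil, mast cell and red blood cell genes. Skeletal muscle genes stood out in 1 tumor on each side, with a summed level of 17.7 in tumor 2 of 18LCO025 and 17.2 in 18LCO052, beside 8.68 in the lowest tumor, and the part of muscle in the differences was not tested. Of 14 pericyte and vascular smooth muscle genes 13 were kept and 2 were higher, Notch3 and Lmod1, an actin-binding protein of smooth muscle (log2 difference 5.34, SE 0.68, limma adjusted p = 0.00321). Of 20 complement genes 19 were kept and 3 were higher, but the counts were 1, 0 and 0 without 17LCO103, 18LCO003 and mouse 18LCO025, with C3 at 13.55, 13.53, 13.38 and 13.08 against 9.65, 7.30, 10.25 and 11.81 (log2 difference 3.69, SE 0.92, limma adjusted p = 0.0426; lost without 17LCO103, 18LCO003, 17LCO102, tumor 3 of 18LCO025 or mouse 18LCO025, limma adjusted p up to 0.173).

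Within mouse 18LCO025, most genes that separated the other mice also separated tumors 1 and 2 from tumor 3. The comparison was first made without that mouse, on 2 against 3 mice, which called 623 genes (4.14%), 470 higher (3.12%) and 153 lower (1.02%). The filter there asked for 2 averaged values, so genes with few reads in the other tumors passed it through subgroup-one alone. Both tumors 1 and 2 stood above tumor 3 for 446 of the 470 (94.9%), against 41.0% of all genes tested. Both stood below tumor 3 for 141 of the 153 (92.2%), against 39.0% of all genes tested. The median difference within the mouse was 4.56 for the 470 and -1.73 for the 153. With all tumors shifted to 1 median, an alternative chosen after the data were seen, the numbers were 444 and 143. The Pearson correlation between both differences was 0.75 across 14822 genes, which are not independent and share 3 libraries on one axis and 5 on the other, so it is a description. Within the mouse, Epcam differed by 8.07, Crb3 by 8.92, Elf5 by 10.31, S100a4 by -5.48 and Hmga2 by -10.32. The 3 tumors of this mouse share its germline and its environment, and 1 mouse gives no replicate of the difference. Should their subgroups have been drawn from expression, the counts within the mouse give no independent evidence either.

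**Figure D4:**
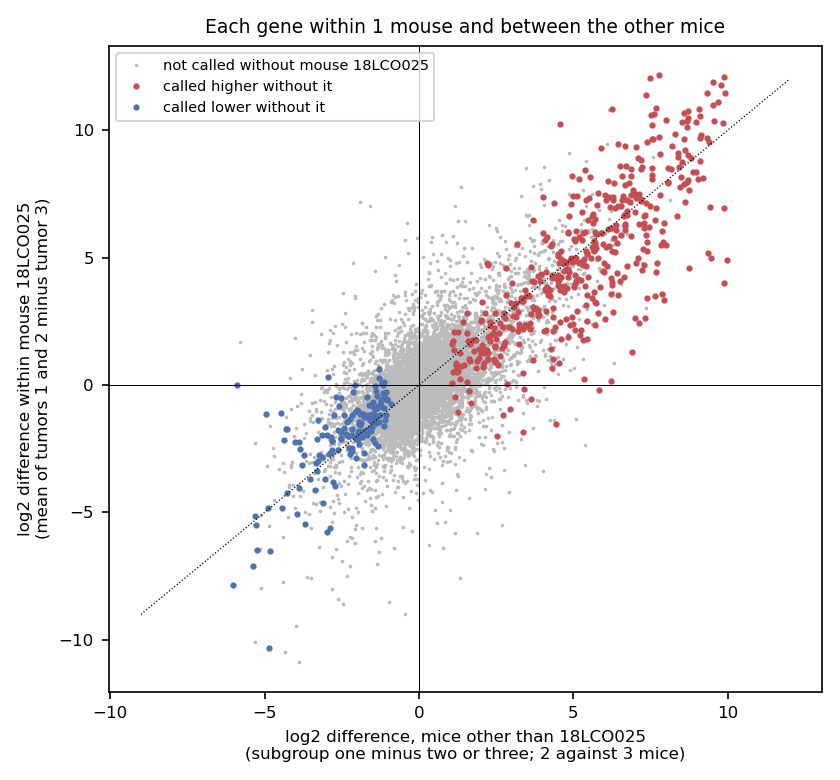
Log2 difference of each of 14822 genes within mouse 18LCO025 (mean of tumors 1 and 2 minus tumor 3, vertical) against the difference between the other mice (subgroup-one minus subgroup-two or subgroup-three, 2 against 3 mice, horizontal); coloured points are the 470 genes called higher and the 153 called lower without that mouse, and the dotted line marks equal values. Of the coloured points, 446 and 141 have both tumors on the side of tumor 3 that the other mice show.

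Both other subgroups differed from subgroup-one at many genes, and few genes were called between them, where each had 2 tumors. In a fit with 3 groups, 1811 genes (12.1%) differed between subgroup-one and subgroup-two, of which 1133 were higher in subgroup-one (7.6%) and 678 lower (4.55%). Between subgroup-one and subgroup-three 1567 genes differed (10.5%), with 999 higher (6.7%) and 568 lower (3.81%). Between subgroup-two and subgroup-three 8 differed (0.0537%), with 5 higher in subgroup-two (0.0335%) and 3 lower (0.0201%). The first 2 comparisons share the subgroup-one tumors. With mouse as a random block the counts were 2099, 2287 and 19. Of the 1067 genes that were higher in subgroup-one, 848 were also called against subgroup-two alone and 778 against subgroup-three alone; of the 614 lower genes 397 and 357 were. For Epcam, the difference was 9.03 against subgroup-two and 8.52 against subgroup-three. For S100a4 the values were -5.03 and -5.52.

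The 8 genes that differed between subgroup-two and subgroup-three rest on 2 tumors each. Higher in subgroup-two were Plet1, a surface protein of epithelial progenitors (log2 difference 6.33, limma adjusted p = 0.0111), the laminin gene Lama5 (5.43, limma adjusted p = 0.022), Lad1, which encodes ladinin of the basement membrane (3.76), Prune2 (3.36) and the aldehyde dehydrogenase gene Aldh3a1 (5.38). Plet1 stood at 12.499 and 12.91 in subgroup-two, at 6.71 and 6.03 in subgroup-three and at 11.25 to 12.27 in subgroup-one. Subgroup one thus shared the high level of subgroup-two. Higher in subgroup-three were Mtap, an enzyme of methionine salvage (-4.23, limma adjusted p = 0.0111), Vgll3, a cofactor of TEAD proteins (-4.08), and the glutathione transferase gene Gstt1 (-5.26). Mtap stood at 7.80 and 7.67 in subgroup-two, at 11.67 and 12.27 in subgroup-three and at 9.41 to 9.81 in subgroup-one, between them. At an unadjusted p under 0.05, 2603 genes differed between these subgroups, and leaving out 1 tumor gave 0 to 49 calls.

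The Trps1+/+ tumors lay nearer to subgroup-two and subgroup-three than to subgroup-one. For each called gene, a tumor's level was placed on a scale from 0, the mean of subgroup-two and subgroup-three, to 1, the mean of subgroup-one. Over the 1067 higher genes the median position was 0.286 in 18LCO046 and 0 in both 18LCO114 and 18LCO128. Over the 614 lower genes it was 0.191, 0.032 and -0.00061. Tumor 18LCO046 lay between the sides for many epithelial genes: Epcam stood at 11.31, 4.42 and 4.64 in the 3 Trps1+/+ tumors, Crb3 at 5.41, 0 and 0, Ocln at 8.18, 1.97 and 1.66 and Erbb3 at 10.44, 7.31 and 5.70. Its values were below every subgroup-one tumor for these 4 genes and above every tumor of subgroup-two and subgroup-three. The genes were chosen with the 8 Trps1F/F tumors, so the positions of those 8 are a description, and no test was made of the genotype.

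**Figure D5:**
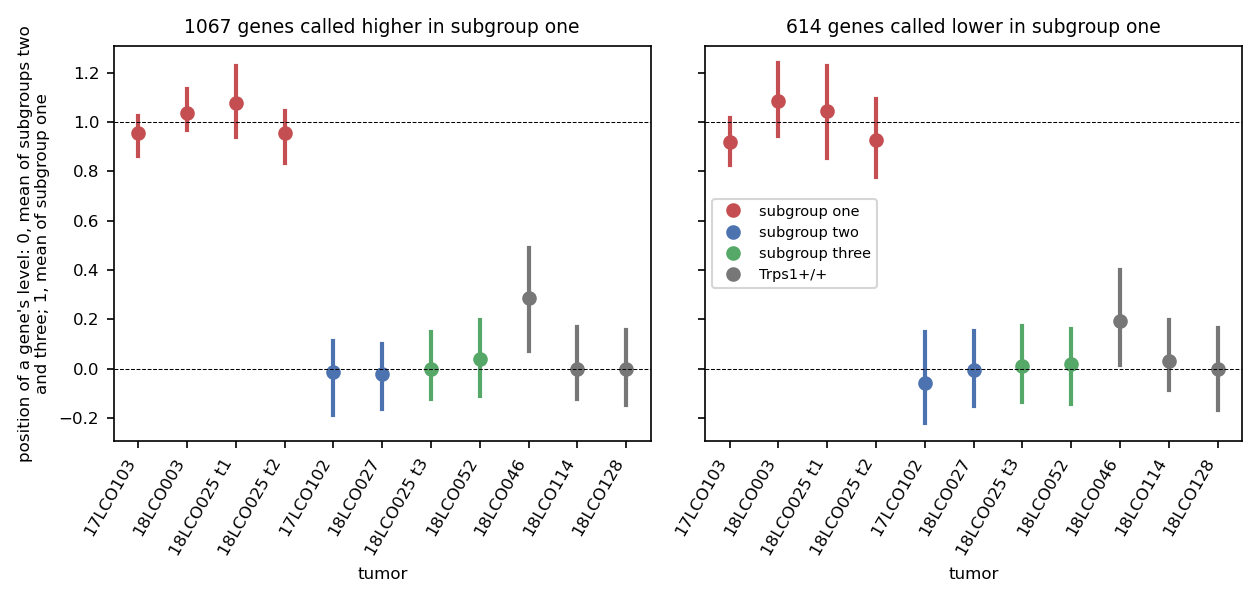
Position of each tumor on the genes called higher (left) and lower (right) in subgroup-one, where 0 is the mean of subgroup-two and subgroup-three and 1 the mean of subgroup-one; points are medians over genes and lines join the lower and upper quartiles. The 8 Trps1F/F tumors lie near 0 or 1 because they chose the genes, and among the Trps1+/+ tumors 18LCO046 lies at 0.286 and 0.191 and the other two near 0.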

How the data were processed

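RNA of each tumor was extracted with a kit that isolates DNA and RNA together, and libraries were made with a TruSeq kit, per the labels' protocols. The submitters' processing notes name TopHat, HTSeq and the build GRCm38, with no versions; strand use is not stated. The values used are the authors' deposited log2(normalized count + 1); in every library they were whole multiples of 1 read within 0.01. Of 26244 gene rows, 14 symbols turned into dates were left out. Tumors of a mouse were averaged within a side, and genes reaching 10 (normalized count + 1) in at least 3 averaged values were kept (14908). limma 3.58.1 in R 4.3.3 (lmFit, eBayes with trend) gave differences, SE and p-values, adjusted by the Benjamini-Hochberg method over all kept genes; a second fit had 3 groups. The limma steps were tested on simulated data. Folds of genes with under 4 reads on a side are ratios of normalized counts with exact 95% intervals for counting error only, or bounds with a floor of 3 counts over the group. Gene positions come from the GENCODE annotation of GRCm38. Tumors of different mice are the replicates, except that mouse 18LCO025 has an average on each side. The full comparison ignored that pairing, and the block by mouse, which entered the 8 tumors separately, was the alternative. Summed levels are log2 of the sum of normalized counts over a list, with nothing added.

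The tumors, gene lists and tests were chosen with earlier results of these data known. Named genes are Trps1, Cdh1, the 12 largest called differences each way (sides not overlapping, mean of the higher side above the median gene, no clone or predicted symbols), up to 4 members with the smallest p of each list described, and 3 genes each way between subgroup-two and subgroup-three. Others were chosen after their values were seen: Acta2, Adipoq, Acan, Aldh3a1, Areg, Cdh2, Col2a1, Csn2, Csn3, Ctnna1, Ctnnb1, Dkk2, Elf3, Esr1, Fn1, Foxa1, Gata3, Grhl2, Ovol2, Prlr, Prune2, Trp63, the keratins Krt5, Krt7, Krt8, Krt10, Krt14, Krt18 and Krt19, and Snai1, Snai2, Twist1, Twist2, Zeb1 and Zeb2. Alternatives were the block by mouse, separate tumors, each tumor or mouse 18LCO025 left out, other filters, pseudocounts and scalings, no variance trend, and voom weights on recovered reads. The authors' own comparison tables were not used here. Some genes are not reported here.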

Additional observations from a re-analysis of the deposited data

Results flagged for a closer look

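In 10 of the 266 groups of 4 tumors behind the named genes, 1 tumor stood apart from the other three of its side by more than Dixon's 95% critical value for a group of that size. Chance alone flags about 1 in 20 such groups, so the number of flags is no result in itself. The named genes were 133.

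In subgroup-one, tumor 17LCO103 had 11.88 for Trps1 while the others of its side had 9.90 to 10.20, and 10.01 for Map3k21, where the others had 11.27 to 11.47. Tumor 1 of mouse 18LCO025 had 16.07 for the epidermal keratin gene Krt10 (others 5.33 to 5.87) and 6.89 for the collagen gene Col9a1 (others 10.66 to 10.99). Tumor 18LCO003 had 9.11 for Aldh3a1 (others 8.23 to 8.34).

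In subgroup-two and subgroup-three, tumor 17LCO102 had 5.16 for Prlr (others 3.23 to 3.56) and 12.60 for Rbpj (others 11.70 to 11.83). Tumor 3 of mouse 18LCO025 had 12.61 for Amigo2 (others 9.03 to 9.38). Tumor 18LCO052 had 3.97 for the N-cadherin gene Cdh2 (others 10.45 to 11.30) and 1.56 for Cidea, which had no read in the others of its side. The cause of these values was not tested.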

How the results depend on the processing

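The count of 1681 genes between subgroup-one and the other tumors stayed within 1.5 times under the other filters, pseudocount and scalings, without the variance trend, with voom weights and with 8 separate tumors (1495 to 2365), and rose to 2793 with the replicate block by mouse. Leaving out 1 tumor gave 754 to 1644 genes, and leaving out mouse 18LCO025 gave 623. Among the single tumors, the counts were lowest without 18LCO003 (754) and 17LCO103 (865). The single-tumor fits kept the genes of the full comparison. Applying the filter again to the remaining tumors, an alternative chosen after the data were seen, gave 432 without 18LCO003 and 563 without 17LCO103, over 14514 and 14397 genes, fewer than the 14908 of the full comparison, and both higher and lower calls fell. Leave-one-out counts were 815 to 1905 between subgroup-one and subgroup-two, 646 to 1553 between subgroup-one and subgroup-three and 0 to 49 between subgroup-two and subgroup-three, where the block gave 19 genes. The cause of these differences was not tested. Of 119 called genes that follow the naming rule, 116 kept their call with the block, 119 with a pseudocount of 8, 113 after quantile normalization, 110 with voom weights, 76 without 17LCO103, 73 without 18LCO003 and 64 without mouse 18LCO025. With the filter applied again, fewer of them were tested, and 57 kept their call without 17LCO103 and 47 without 18LCO003. None of them changed direction under these alternatives. For genes whose sides did not overlap, the fits that left out tumors could not change it. With 2 to 4 values a group, genes with small or variable differences are not resolved, and genes with few reads have differences that depend on the pseudocount.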

Other observations

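Neighbouring genes were off together in a few places of single tumors, by a rule chosen after the data were seen. For 9225 genes with a median level over 8, each tumor's deviation from the median tumor was smoothed as a running median of 9 neighbours, and runs of at least 4 genes beyond 1.2 log2 units were listed. Tumor 3 of mouse 18LCO025 had 2 runs on chromosome 11, at 112782224 to 114720977 (8 genes, Sox9 among them, median deviation 1.79) and at 115182832 to 116012719 (22 genes, Grb2 and Itgb4 among them, median deviation 1.96). Over the same 22 genes the medians of the other 10 tumors ran from -0.36 to 0.19. Tumor 18LCO027 had a run on chromosome 4 at 88094629 to 89311039 (GRCm38), where Focad, Hacd4, Klhl9, Mtap and Cdkn2b had a median deviation of -2.49, and one at 99193934 to 101659364 (4 genes, -1.43). Mtap is one of the 8 genes called between subgroup-two and subgroup-three, and Cdkn2a, its neighbour, which encodes cell cycle inhibitors, was at 2.73 and 3.30 in subgroup-two, 9.18 and 11.88 in subgroup-three and 6.25 to 8.48 in subgroup-one (limma adjusted p = 0.0795 between subgroup-two and subgroup-three). In 18LCO003, 4 genes on chromosome 6 at 123229843 to 124523443 had a median deviation of -1.63, macrophage markers such as Cd163 among them. DNA copy number was not analysed here.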
